A study of Mus musculus with 54 samples.

Results

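Transcripts of 8 genes of the pluripotent state, Pou5f1, Sox2, Sall4, Dppa2, Dppa4, Utf1, Lin28a and Lin28b, were followed by RNA sequencing across mouse embryonic stem cell lines that differ in EZH2. They were taken by gene symbol from a table of 55401 genes, and all 8 passed the filter on low counts in every fit. The study covers Weaver syndrome, an overgrowth syndrome caused by variants of EZH2, the enzyme of Polycomb repressive complex 2 (PRC2) that methylates histone H3. The lines with an added gene were the Ezh2 fl/∆ heterozygote expressing EZH2 A677T, R679C, K634E or K563E (taken here as Weaver variants), EZH2 A733T, or wild-type EZH2 (WT). The references without an added gene were the heterozygote itself (het) and the parental line (parental, library name flfl). The study also has a growth restriction-associated variant without naming it in the labels. A733T was set apart here on general knowledge. WT and all 5 variant lines therefore share the deletion of 1 Ezh2 allele with het, and keep the other floxed allele. Each of the 8 lines was sequenced after 2i and LIF had been withdrawn and all-trans retinoic acid added for a brief time (ATRA), and undifferentiated (mESC), with 3 libraries per group. What drives the added EZH2, whether a line is 1 clone, and how long ATRA was applied are not stated in the labels.

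POU5F1 (OCT4) and SOX2 are transcription factors that bind DNA side by side and maintain the pluripotent state, and retinoic acid given to stem cells is known to lower Pou5f1. SALL4 is a zinc finger factor that works with them and recruits the NuRD deacetylase complex. DPPA2 and DPPA4 form a heterodimer on chromatin that primes developmental and germline genes, and UTF1 is a chromatin-bound protein of undifferentiated cells whose gene is a target of POU5F1 and SOX2. LIN28A and LIN28B bind precursors of the let-7 microRNAs and block their maturation, while mature let-7 represses the Lin28 transcripts, so the pair inhibit each other.

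Libraries held 15612700 to 31338825 counts in ATRA and 15361598 to 29614420 in mESC. Nothing in the labels says that replicates were separate cultures, so the p-values reflect the spread among these libraries alone, and that spread may be technical. Ezh2 stood at 233 to 243 CPM (counts per 1000000, TMM-normalised) in het and 274 to 284 in parental in ATRA, a difference of -0.23 on the log2 scale (adjusted p = 0.0109), and at 276 to 285 in het against 301 to 302 in parental in mESC, where the difference of -0.11 missed the threshold (adjusted p = 0.562). With an added gene, Ezh2 stood at 371 to 449 CPM in the 4 Weaver variants, 272 to 279 in A733T and 358 to 368 in WT in ATRA, and at 467 to 616, 346 to 380 and 417 to 462 in mESC. Whether reads of the added gene were counted under Ezh2 is not stated, and the deleted exons were not looked at separately. Markers of undifferentiated stem cells (Nanog, Zfp42, Esrrb, Klf4, Tdgf1 and Dppa5a) summed to 1264 to 2181 CPM in ATRA and 4119 to 5578 in mESC, and all 6 were above 0.1 CPM in both. Of 8 fibroblast markers, which would show feeder cells, the sum ran from 5.97 to 25.0 CPM in ATRA and from 1.72 to 15.8 in mESC, with Postn and Lum under 0.1 CPM in both. A677T replicate 3 in mESC and K634E replicate 3 in ATRA stood apart: their counts differed from those of the other 2 libraries of their group by a chi-square per degree of freedom of 17.8 and 35.2 for the A677T library and 17.7 and 23.7 for the K634E library, against 8.73 and 2.69 between the others. Their mitochondrial shares of 2.7% and 2.77% were the top values of a range from 1.26%. In each library, log2 levels relative to the average library were correlated with GC content across genes. In mESC the Spearman rho ran from -0.72 to -0.01 in A677T, -0.37 to 0.09 in R679C, -0.70 to -0.27 in K634E, -0.56 to -0.02 in K563E and -0.03 to 0.41 in A733T, against 0.49 to 0.71 in WT. Lin28b lies at the low end of GC content (40.6% of its longest transcript, above 8.06% of tested genes) and Utf1 at the high end (63.5%, above 98.9%). Values corrected for the GC trend of the libraries are therefore given for results whose call it changes. Values that missed the threshold both ways could also change sign, and not all of these are listed. Examples are Pou5f1 in R679C in mESC (-0.08, corrected 0.13) and Utf1 in K563E in ATRA (-0.14, corrected 0.10).

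The let-7 microRNAs that LIN28 proteins act on share 1 seed, and the same letters in reverse complement occur in the transcripts of 3 of the 8 genes. RefSeq mature microRNAs of the let-7 family were taken by name, and all 9 carry the seed GAGGUAG at bases 2 to 8. Other microRNAs were not counted. The seed is shown in capitals in let-7a (chr13:48538239-48538260, minus strand, GRCm38) and let-7g (chr9:106178846-106178867, plus strand), which stand for the family here.
let-7a-5p: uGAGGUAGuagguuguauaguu
let-7g-5p: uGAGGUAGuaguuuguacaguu
The search covered the transcript strand of the 3′ UTR of each gene's longest protein-coding transcript in GENCODE M21, and no other isoform. The seed match CTACCTC was present at 4 places in Lin28b, 2 in Lin28a and 1 in Sall4. It was not in the 3′ UTRs of Pou5f1, Sox2, Dppa2, Dppa4 and Utf1, and 8.87% of 20935 genes with a 3′ UTR hold it. That share is not matched for length, and the 3′ UTR has 4445 bases in Lin28b and 2775 in Lin28a. Sites are shown with the match in capitals because let-7 and the Lin28 genes are known to inhibit each other. Binding at these sites was not tested. Lin28b sites 2, 3 and 4, where t, c and t follow the match, are not shown. Both Lin28a sites (chr4:134005189-134005210 and chr4:134004551-134004572), the site nearest the stop codon of Lin28b (chr10:45381022-45381043) and the Sall4 site (chr2:168748940-168748961) lie on the minus strand of GRCm38, and in each an a follows the match.
Lin28a site 1: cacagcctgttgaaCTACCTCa
Lin28a site 2: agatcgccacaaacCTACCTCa
Lin28b site 1: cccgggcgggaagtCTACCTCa
Sall4 site: gggctttaatttatCTACCTCa
No microRNA was measured here, and a match describes letters only.

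Promoters of the genes that moved most are shown. Pou5f1 and Sox2 fell together under retinoic acid, Utf1 was lower than in WT in A733T, and Lin28b was higher than in WT in the 4 Weaver variants. RefSeq (GRCm38.p6) gave start sites for 5 of the 8 genes. The windows are the 250 bases before the start site of Pou5f1 (the first of 2 in RefSeq) at chr17:35505782-35506031 (plus strand), Sox2 at chr3:34649745-34649994 (plus strand), Utf1 at chr7:139943606-139943855 (plus strand) and Lin28b at chr10:45470202-45470451 (minus strand). Capitals mark matches on either strand to the retinoid receptor half-site AGGTCA, the Sox site ACAAAG and the GC box GGGCGG.
Pou5f1: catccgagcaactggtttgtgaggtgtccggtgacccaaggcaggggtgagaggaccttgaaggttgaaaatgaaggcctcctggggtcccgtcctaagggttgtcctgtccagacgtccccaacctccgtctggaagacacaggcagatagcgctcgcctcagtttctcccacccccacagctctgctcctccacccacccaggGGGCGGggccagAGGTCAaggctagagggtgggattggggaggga
Sox2: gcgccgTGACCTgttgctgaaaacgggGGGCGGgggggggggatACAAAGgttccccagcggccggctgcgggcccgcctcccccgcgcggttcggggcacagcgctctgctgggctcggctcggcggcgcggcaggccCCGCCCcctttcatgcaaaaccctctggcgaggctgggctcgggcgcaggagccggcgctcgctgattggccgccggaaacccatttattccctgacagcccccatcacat
Utf1: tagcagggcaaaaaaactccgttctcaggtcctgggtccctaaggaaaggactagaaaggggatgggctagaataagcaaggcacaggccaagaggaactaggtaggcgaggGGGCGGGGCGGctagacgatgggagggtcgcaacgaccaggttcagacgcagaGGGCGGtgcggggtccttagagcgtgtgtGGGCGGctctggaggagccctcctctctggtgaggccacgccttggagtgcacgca
Lin28b: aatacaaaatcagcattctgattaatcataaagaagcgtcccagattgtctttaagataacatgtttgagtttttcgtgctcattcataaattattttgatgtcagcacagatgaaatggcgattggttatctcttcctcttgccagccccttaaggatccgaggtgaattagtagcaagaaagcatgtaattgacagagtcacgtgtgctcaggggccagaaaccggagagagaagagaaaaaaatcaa
The Pou5f1 window held AGGTCA 33 bases before the start and a GC box at 45 bases. That of Sox2 held 1 half-site, 1 Sox site and 2 GC boxes. Utf1 had 4 GC boxes, the first 2 of which overlap, and Lin28b and Lin28a had none of the 3 motifs. The octamer ATGCAAAT was in none of these windows. The window of the other Pou5f1 start site, at chr17:35508557-35508806 and 45.6% GC, held none of the 4 motifs and is not shown. Of 32851 RefSeq promoter windows of this length, 14% hold AGGTCA, 16.5% ACAAAG, 32.7% GGGCGG and 1.6% ATGCAAAT. The GC content was 72% for Sox2, 62% for Pou5f1, 61.6% for Utf1, 61.2% for Lin28a and 39.2% for Lin28b.

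The lowest level of any of the 8 genes in any library was 21.5 CPM, for Lin28b in A733T in mESC. Per length, in CPM per kilobase of merged exons in the WT line, the levels in ATRA were 250.1 for Utf1, 163 for Pou5f1, 139 for Lin28a, 73.3 for Dppa2, 71.4 for Dppa4, 55.2 for Sox2, 34.6 for Sall4 and 8.47 for Lin28b. In mESC the same scale gave 416 for Pou5f1, 189 for Utf1, 156 for Sox2, 95.0 for Lin28a, 68.4 for Dppa4, 50.9 for Sall4, 42.0 for Dppa2 and 3.76 for Lin28b. Pou5f1 thus led in mESC and Utf1 in ATRA, and Lin28b was last in both. Of the genes, 3 overlap an antisense gene, namely Pou5f1 with Gm19553, Sall4 with Gm14261 and Lin28a with Gm13061, and without stated strandedness the reads in the overlap cannot be told apart. The highest level of an antisense gene in any library was 0.603 CPM.

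**Figure D1:**
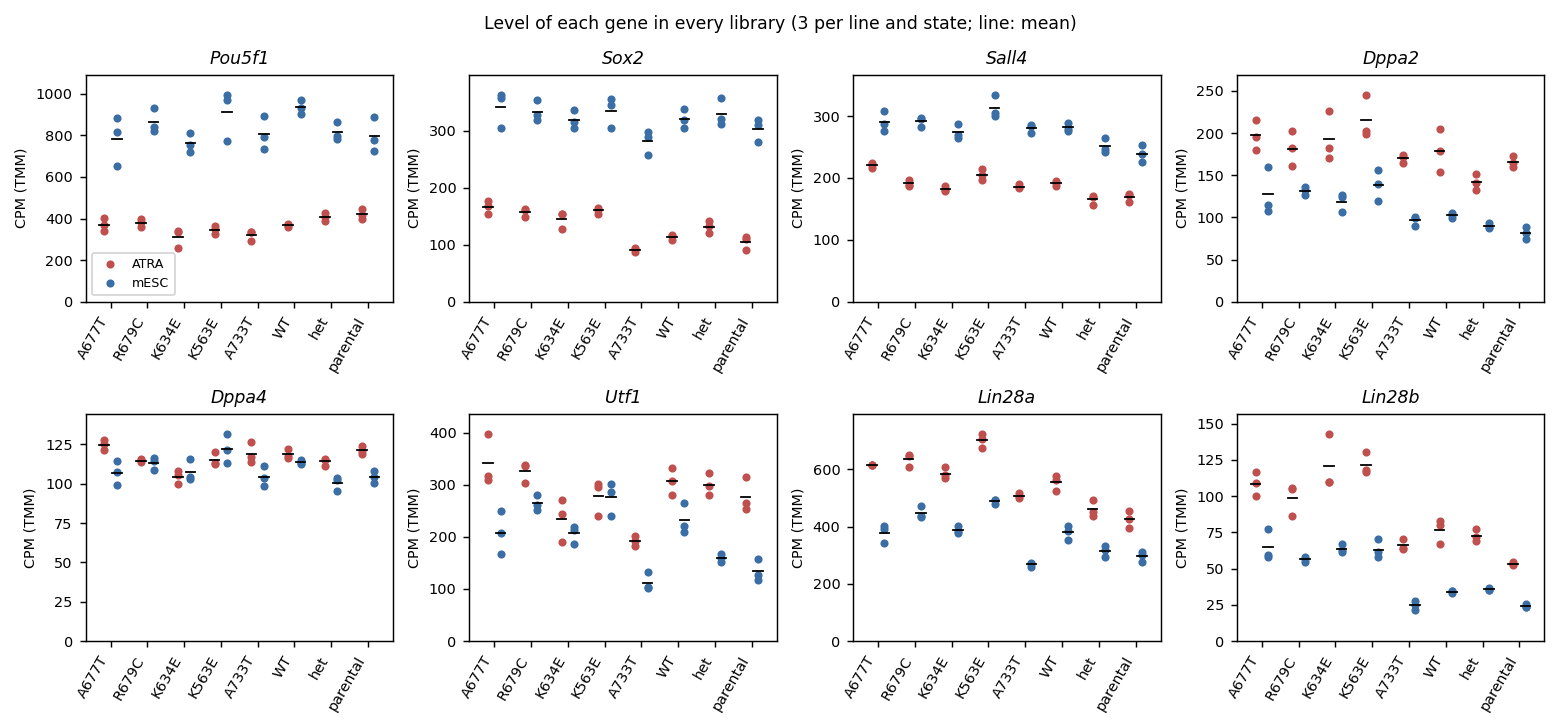
Level in TMM-normalised CPM (y axis, linear from 0) of each of the 8 genes in every library of 8 lines (x axis), ATRA in red left of mESC in blue, with the group mean as a black line. ATRA libraries sit below mESC libraries for Pou5f1, Sox2 and Sall4 and above them for Lin28a and Lin28b in every line.

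Transcripts of the core transcription factors Pou5f1, Sox2 and Sall4 fell with ATRA in all 8 lines. On the log2 scale the change in Pou5f1 ran from -0.92 in parental to -1.40 in K563E, that in Sox2 from -1.04 in A677T to -1.62 in A733T, and that in Sall4 from -0.40 in A677T to -0.61 in K563E. In the WT line Pou5f1 was at 358, 374 and 368 CPM in ATRA, against 933, 901 and 971 CPM in mESC. These libraries do not overlap, and Pou5f1 fell to 0.392 of its mESC level, with a log2 change of -1.35 (SE 0.0987, adjusted p = 7.59e-16). Sox2 in WT was at 115, 108 and 118 CPM in ATRA, against 337, 305 and 319 CPM in mESC, a change of -1.50 (SE 0.0821, adjusted p = 1.05e-20). Sall4, which recruits NuRD, was at 192, 187 and 195 CPM in WT in ATRA, against 279, 276 and 289 CPM in mESC, a change of -0.56 (SE 0.0534, adjusted p = 1.73e-12). Lower transcript per cell and fewer cells that express a gene cannot be told apart in bulk RNA, nor can the withdrawal of 2i and LIF be told apart from the addition of ATRA. Among the lines, the highest mean level of Pou5f1 in ATRA was 421 ± 25.2 CPM in parental (SD, n = 3), while that of Sox2 was 166 ± 12.1 CPM in A677T. No ATRA library of any line reached the level of an mESC library for any of these 3 genes.

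The Lin28 genes and Dppa2 rose with ATRA in all 8 lines. Lin28b rose by 0.74 (A677T) to 1.42 (A733T), its paralogue Lin28a by 0.50 (R679C) to 0.92 (A733T), and Dppa2 by 0.46 (R679C) to 1.02 (parental). Of the 8 genes, the let-7 blocker Lin28b had the longest 3′ UTR among those searched (4445 bases). In the WT line Lin28b was at 80.4, 67.2 and 82.6 CPM in ATRA, against 33.5, 34.3 and 34.6 CPM in mESC, 2.25 times the mESC level and a log2 change of 1.17 (SE 0.0995, adjusted p = 4.33e-14). Lin28a in WT was at 575, 526 and 564 CPM in ATRA, against 402, 352 and 384 CPM in mESC, a change of 0.55 (SE 0.0607, adjusted p = 1.04e-10). Dppa2 in WT was at 179, 154 and 205 CPM in ATRA, against 106, 103 and 99.7 CPM in mESC, a change of 0.80 (SE 0.116, adjusted p = 1.42e-07). In WT the ATRA libraries of these 3 genes all lie above the mESC libraries. Dppa4, whose product pairs with DPPA2 and whose gene lies 9670 bases from Dppa2 on the same strand of chromosome 16, changed by at most 0.22: the log2 change was 0.22 in A677T, 0.22 in parental, 0.19 in A733T and 0.19 in het, which passed, and 0.06 (adjusted p = 0.371) in WT, 0.02 (adjusted p = 0.803) in R679C, -0.04 (adjusted p = 0.593) in K634E and -0.08 (adjusted p = 0.255) in K563E, which did not. The call was lost in A677T without A677T mESC replicate 3 (0.0632), in A733T without A733T ATRA replicate 1 (0.0554) or A733T mESC replicate 3 (0.0719) and in het without het mESC replicate 3 (0.0801). With no filter on low counts these 3 calls were also lost (adjusted p = 0.0715, 0.0833 and 0.0666). Utf1 rose in parental by 1.04, het by 0.91, A733T by 0.77, A677T by 0.71 and WT by 0.40 (adjusted p = 0.00959), where the call was lost without WT ATRA replicate 2 (0.0552) or WT mESC replicate 2 (0.0651). It stood at 0.30 (adjusted p = 0.0506) in R679C, 0.19 (adjusted p = 0.243) in K634E and 0.02 (adjusted p = 0.922) in K563E, and the R679C value passed without R679C ATRA replicate 3 (0.0468), by DESeq2 (0.34, adjusted p = 0.0187), with its size factors (0.34, adjusted p = 0.0283), with no filter (0.28, adjusted p = 0.000689) and with only the groups compared (0.34, adjusted p = 0.00078). With the GC correction it was -0.04 (adjusted p = 0.589) in R679C, of the other sign, 0.04 (adjusted p = 0.612) in K634E and 0.40 (adjusted p = 5.72e-08) in A677T.

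Over 8 lines and 8 genes, 57 of 64 changes with ATRA passed, 33 higher and 24 lower, or 56 without the 2 libraries that stand apart. Per line, 8 of the 8 genes passed in A677T, where 55.3% of all genes tested did, 6 in R679C (57.5%), 6 in K634E (57.4%), 6 in K563E (57.8%), 8 in A733T (55.8%), 7 in WT (59%), 8 in het (56.8%) and 8 in parental (55.2%). In WT, 29.8% of all genes tested rose and 29.2% fell, against 4 and 3 of the 8 genes.

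**Figure D2:**
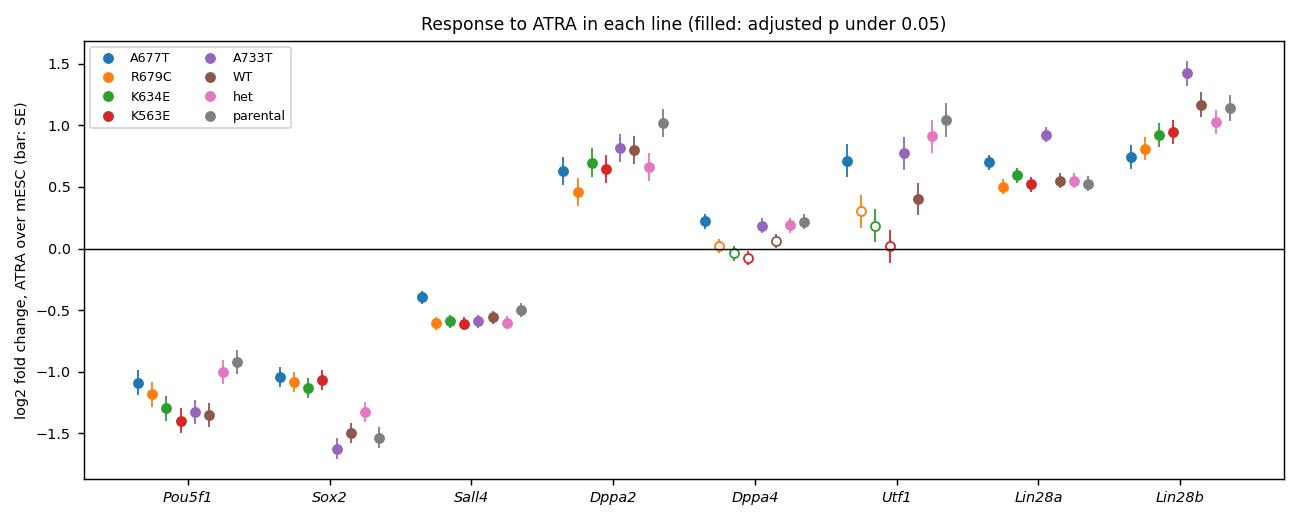
Log2 fold change of ATRA over mESC (y axis) for each gene (x axis) in each of the 8 lines (colours), with the standard error as a bar and filled points at an adjusted p under 0.05. Pou5f1, Sox2 and Sall4 lie below 0 and Dppa2, Lin28a and Lin28b above 0 in every line, and the Sox2 values of the 4 Weaver variants lie closest to 0.

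Genes around the members also changed with ATRA in the WT line, where 59% of all genes tested passed. Of 14 shared targets and partners of POU5F1 and SOX2, 10 fell and 3 rose, with a median log2 change of -2.01 against 0.02 over all genes tested. Prdm14, a regulator of naive pluripotency, was at 0.107 CPM in ATRA and 29.6 CPM in mESC, the secreted protein gene Spp1 changed by -5.77 (adjusted p = 3.06e-40) and the nuclear receptor gene Esrrb by -4.48 (adjusted p = 2.09e-40). Lefty1, a Nodal antagonist, rose by 3.44 (adjusted p = 3.02e-19) and the PRC2 cofactor Jarid2 by 0.77 (adjusted p = 9.3e-19). Of 8 nuclear receptors that act on Pou5f1, 7 rose and 1 fell. The fit on mESC alone tested 5 of the 8. The other receptors passed the filter through ATRA libraries, so the filter largely set their direction. The fall was in Nr5a2, an activator of Pou5f1, at -4.99 (adjusted p = 9.33e-36), while the repressors Nr2f1 and Nr2f2 reached 1.09 and 3.11 CPM in ATRA, against 0.0338 and 0.136 CPM in mESC. Rarb, a retinoic acid receptor that retinoic acid itself induces, was at 4.5 CPM in ATRA and 0.273 CPM in mESC.

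Paralogues of the members shifted in both directions. Of all genes tested in WT, 29.8% rose and 29.2% fell with ATRA, the shares to set beside each count that follows. Of 11 Sox and Pou paralogues, 7 rose with ATRA in WT and 1 fell. The fit on mESC alone tested 8 of the 11. The other paralogues passed the filter through ATRA libraries, so the filter largely set their direction. The endoderm factor Sox17 rose by 6.66 (adjusted p = 5.63e-27), the neural factor Sox1 by 4.05 (adjusted p = 4.23e-30) and Sox4 by 3.08 (adjusted p = 5.54e-30), while Sox15, a close relative of Sox2 in stem cells, changed by -3.06 (adjusted p = 1.09e-18). Among 14 genes of the Sall family and the NuRD complex, 5 rose and 5 fell, led by Sall2 (3.36, adjusted p = 1.43e-29), Mta3 (0.65, adjusted p = 1.22e-11) and Rbbp7 (0.29, adjusted p = 2.37e-05) upward and by Sall1 (-2.28, adjusted p = 3.5e-32), Mta2 (-0.48, adjusted p = 1.03e-07) and Hdac1 (-0.32, adjusted p = 4.01e-06) downward. Of 10 genes known to depend on DPPA2 and DPPA4, 8 were tested and 8 rose. The fit on mESC alone tested 3 of the 10. The other tested genes passed the filter through ATRA libraries, where they are high, so the filter largely set their direction. Zscan4d, Zscan4c and Zscan4f, near-identical copies between which the counting may split reads, had 1.72, 1.47 and 0.964 CPM in ATRA in WT and 0 counts in WT in mESC. In the let-7 pathway, 9 of 23 genes rose and 10 fell, with a median of 0.02, equal to that of all genes tested (0.02). The let-7 targets Ccnd2 (3.78, adjusted p = 2.57e-30), Hmga2 (1.58, adjusted p = 2.88e-17) and Myc (1.50, adjusted p = 8.22e-26) rose, and Mycn (-2.46, adjusted p = 9.07e-27), Cdk6 (-1.38, adjusted p = 4.45e-18) and Igf2bp2 (-1.16, adjusted p = 5.94e-22) fell.

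Lin28b was higher than in WT in all 4 Weaver variant lines and in both states, and lower than in WT in A733T in mESC. In mESC it was at 59.4, 58.3 and 77.6 CPM in A677T, 54.4, 57.8 and 56.7 in R679C, 62.8, 67.1 and 61.3 in K634E and 61.1, 58.1 and 70.1 in K563E, against 33.5, 34.3 and 34.6 in WT. Every library of the 4 variants lies above every WT library. Averaged over the 4 variants, the level exceeded WT by 0.90 (SE 0.081, adjusted p = 1.96e-09) on the log2 scale, 1.86-fold, a size above that of 92.1% of all genes tested, and each variant passed singly (0.97 in A677T, 0.76 in R679C, 0.93 in K634E and 0.93 in K563E). In ATRA it was at 109, 99.9 and 117 CPM in A677T, 105, 86.5 and 106 in R679C, 110.0, 109.8 and 143 in K634E and 118, 117 and 130.2 in K563E, against 80.4, 67.2 and 82.6 in WT, again without overlap. The mean exceeded WT by 0.55 (SE 0.0801, adjusted p = 1.14e-05), and singly the values were 0.50 in A677T, 0.37 in R679C, 0.67 in K634E and 0.67 in K563E. The R679C call in ATRA was lost without R679C ATRA replicate 1 (0.061), R679C ATRA replicate 3 (0.0583) or WT ATRA replicate 2 (0.0953). With the GC trend taken out the mean stayed higher, at 0.62 (adjusted p = 6.09e-12) in mESC and 0.46 (adjusted p = 2.11e-11) in ATRA, and all 4 single values in each state passed. The direction was also the same in each of the other fits tried.

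In A733T, Lin28b was at 27.8, 21.5 and 24.8 CPM in mESC, against 33.5, 34.3 and 34.6 in WT, a difference of -0.45 (SE 0.101, adjusted p = 0.0027), without overlap. The GC correction gave -0.57 (adjusted p = 2.89e-08). After ATRA it was at 64.0, 63.7 and 70.4 CPM in A733T and 80.4, 67.2 and 82.6 in WT, which overlap, and -0.22 (adjusted p = 0.138) missed the threshold, though it passed with only the groups compared (-0.23, adjusted p = 0.0294) and with the GC correction (-0.20, adjusted p = 0.00242) and without WT ATRA replicate 2 (0.0446). Lin28a, its paralogue, was also higher in the mean of the Weaver variants and lower in A733T in mESC. In mESC it was at 391, 403 and 342 CPM in A677T, 473, 435 and 438 in R679C, 401, 377 and 384 in K634E and 491, 494 and 479.9 in K563E, against 402, 352 and 384 in WT. Averaged over the 4 variants, the level exceeded WT by 0.19 (SE 0.0513, adjusted p = 0.00335), lost without WT mESC replicate 2 (0.051), and singly R679C (0.28, adjusted p = 0.0026) and K563E (0.40, adjusted p = 2.63e-05) passed, while A677T (0.04) and K634E (0.06) did not. Lin28a in A733T was at 260.2, 270.1 and 273 CPM in mESC, below every WT library, a difference of -0.48 (SE 0.0644, adjusted p = 5.55e-06). After ATRA, Lin28a averaged 616 ± 0.41 CPM in A677T, 635 ± 24.9 in R679C, 585 ± 19.3 in K634E and 702 ± 23.6 in K563E, against 555 ± 25.9 in WT (SD, n = 3 each). The mean difference was 0.19 (SE 0.0468, adjusted p = 0.00359), lost without WT ATRA replicate 2 (0.0693). Singly, K563E passed at 0.34 (adjusted p = 0.000116) and R679C at 0.20 (adjusted p = 0.0241), the R679C call being lost without R679C ATRA replicate 1 (0.102), R679C ATRA replicate 3 (0.0946) or WT ATRA replicate 2 (0.134), with no filter (0.0677) and with only the groups compared (0.121). A677T stood at 0.15 (adjusted p = 0.0768) and passed by DESeq2 (0.15, adjusted p = 0.0395) and with the GC correction (0.16, adjusted p = 0.029). A733T was at 508, 499 and 516 CPM in ATRA, below the WT libraries at 575, 526 and 564, and its difference of -0.13 (adjusted p = 0.133) missed the threshold but passed with the GC correction at -0.14 (adjusted p = 0.0436).

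**Figure D3:**
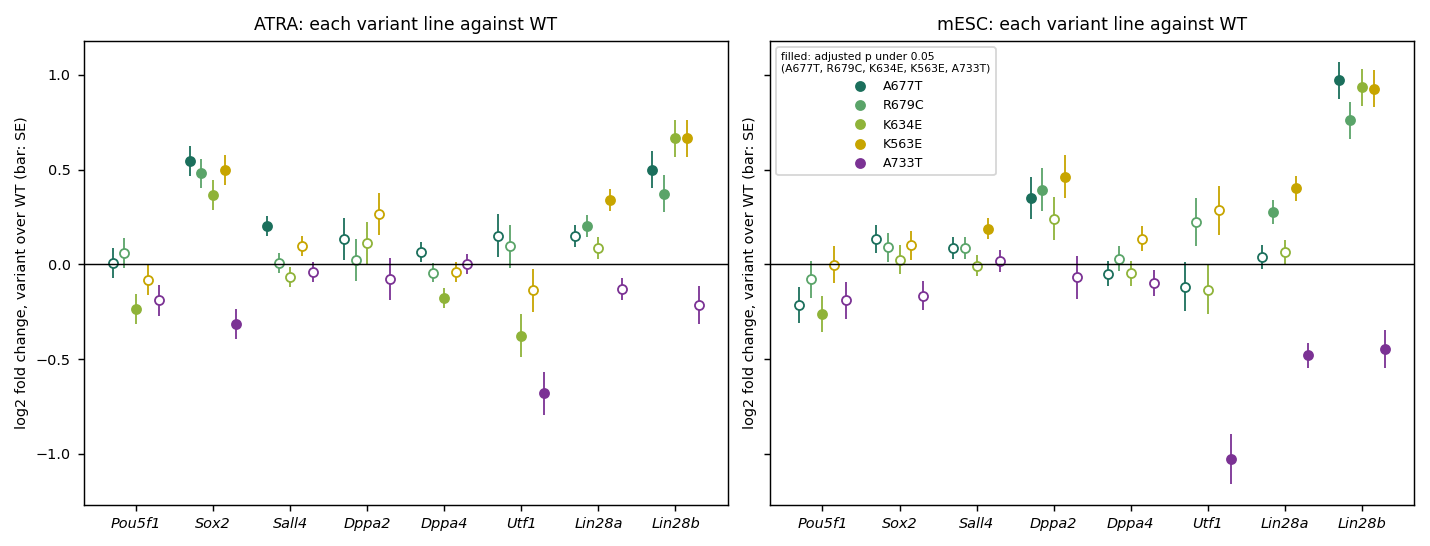
Log2 fold change of each variant line over WT (y axis) for each gene (x axis), ATRA left and mESC right, with the standard error as a bar and filled points at an adjusted p under 0.05. The Lin28b values of the 4 Weaver variants (0.37 to 0.67 in ATRA, 0.76 to 0.97 in mESC) lie above 0 and those of A733T below 0 in both states.

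After ATRA, Sox2 was higher than in WT in all 4 Weaver variant lines and lower in A733T. In ATRA it was at 177, 168 and 153 CPM in A677T, 161, 149 and 162 in R679C, 154, 154 and 128 in K634E and 154, 165 and 162 in K563E, against 115, 108 and 118 in WT. Every variant library lies above every WT library. Averaged over the 4 variants, the level exceeded WT by 0.47 (SE 0.0643, adjusted p = 3.73e-06), 1.39-fold, and each passed singly (0.55 in A677T, 0.48 in R679C, 0.36 in K634E and 0.50 in K563E). A733T went the other way at 87.2, 92.8 and 93.6 CPM in ATRA, below every WT library, with a difference of -0.32 (SE 0.0798, adjusted p = 0.00617). In mESC, Sox2 averaged 319 to 342 CPM over the 4 variants and 281 ± 21.01 CPM in A733T, against 321 ± 16.1 CPM in WT (SD, n = 3), and neither 0.09 (adjusted p = 0.246) for the 4 variants nor -0.17 (adjusted p = 0.127) for A733T passed. The A733T value passed with only the groups compared (-0.18, adjusted p = 0.0337), and A677T, at 0.13 (adjusted p = 0.156), passed with the GC correction (0.18, adjusted p = 0.0275).

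Pou5f1 was lower than in WT in K634E in both states, by calls that were lost when single libraries were left out. In mESC it was at 816, 884 and 652 CPM in A677T, 931, 822 and 839.6 in R679C, 811, 719 and 755 in K634E, 969, 993 and 773 in K563E and 793, 891 and 736 in A733T, against 933, 901 and 971 in WT. All libraries of K634E and A733T lie below those of WT, those of A677T do as well, and those of R679C and K563E overlap them. The mean of the 4 Weaver variants stood at -0.14 (adjusted p = 0.14) and A733T at -0.19 (adjusted p = 0.174), which passed with no filter (-0.21, adjusted p = 0.0368) and with only the groups compared (-0.20, adjusted p = 0.0229). The sign of the mean depended on the GC trend, since with the correction it passed as higher at 0.13 (adjusted p = 0.014), while uncorrected it passed as lower with no filter (-0.15, adjusted p = 0.0357) and without A677T mESC replicate 2 (0.0365). Corrected, K563E also passed as higher at 0.26 (adjusted p = 0.000225), against -0.00 uncorrected. K634E stood at -0.26 (adjusted p = 0.0438) in mESC, a call lost without K634E mESC replicate 2 (0.175), K634E mESC replicate 3 (0.0726), WT mESC replicate 1 (0.0832), WT mESC replicate 2 (0.064) or WT mESC replicate 3 (0.112), and stood at 0.03 (adjusted p = 0.785) with the GC correction. A677T (-0.21, adjusted p = 0.0742) passed without A677T mESC replicate 2 (0.00933) and with no filter (-0.23, adjusted p = 0.00762), and was 0.11 (adjusted p = 0.111) with the GC correction. In ATRA, Pou5f1 averaged 309.8 to 380.2 CPM over the 4 Weaver variants and 322 ± 23.8 CPM in A733T, against 367 ± 8.04 CPM in WT (SD, n = 3), with differences from WT of -0.06 (adjusted p = 0.537) and -0.19 (adjusted p = 0.106). The A733T value passed with only the groups compared (-0.20, adjusted p = 0.0125) and with the GC correction (-0.28, adjusted p = 3.01e-05). The mean of the 4 variants was 0.05 (adjusted p = 0.339) with the GC correction. K634E was lower in ATRA at -0.24 (adjusted p = 0.0474), a call lost without K634E ATRA replicate 3 (0.372), WT ATRA replicate 1 (0.0794), WT ATRA replicate 2 (0.148) or WT ATRA replicate 3 (0.0888), the first of which is the library that stands apart, and at -0.05 with the GC correction it did not pass (adjusted p = 0.588). The call was also lost with the size factors of DESeq2 (0.0507) and with only the groups compared (0.184).

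Utf1, the gene with the highest GC content of the 8, was lowest on average in A733T. It was at 103, 132 and 101 CPM in A733T in mESC, against 221, 210.2 and 266 in WT, without overlap. Utf1 was at 0.491 times the WT level, with a log2 difference of -1.03 (SE 0.13, adjusted p = 7.27e-06), a size above that of 95.5% of all genes tested. In ATRA it was at 192, 201 and 182 CPM in A733T, against 281, 333 and 307 in WT, a difference of -0.68 (SE 0.114, adjusted p = 0.000204). With the GC correction the differences were -0.88 (adjusted p = 5.32e-14) in mESC and -0.82 (adjusted p = 2.39e-12) in ATRA. The A733T libraries overlapped those of parental in mESC, at 158, 118 and 128 CPM. In ATRA they overlapped those of K634E, at 243, 272 and 191 CPM. A733T was not tested against either line. In the 4 Weaver variants, Utf1 was at 208, 249.8 and 166 CPM in A677T, 281, 261 and 252 in R679C, 214, 187 and 219.9 in K634E and 287, 301 and 239.7 in K563E in mESC, which overlap WT, and the mean difference of 0.06 (adjusted p = 0.635) missed the threshold. The GC correction moved that value to 0.49 (adjusted p = 8.54e-11) and put all 4 variants past the threshold (0.39 in A677T, 0.55 in R679C, 0.33 in K634E and 0.67 in K563E). Uncorrected, R679C passed with no filter (0.22, adjusted p = 0.0413) and with only the groups compared (0.22, adjusted p = 0.0239), and K563E passed with no filter (0.28, adjusted p = 0.00277) and with only the groups compared (0.27, adjusted p = 0.0267) and without WT mESC replicate 3 (0.0469). Across genes, the log2 difference of the 4 variants from WT correlated with GC content at a Spearman rho of -0.65 in mESC and -0.35 in ATRA, and that of A733T at -0.36 in mESC and 0.09 in ATRA, over 10503 genes in mESC and 10951 in ATRA, which are not independent replicates. In ATRA the mean difference for Utf1 was -0.07 (adjusted p = 0.658), or 0.09 (adjusted p = 0.187) with the GC correction, which put A677T past the threshold at 0.31 (adjusted p = 0.000129). Singly, K634E was lower at -0.38 (adjusted p = 0.0281), a call lost without K634E ATRA replicate 3 (0.218), WT ATRA replicate 2 (0.14) or WT ATRA replicate 3 (0.0562), with the GC correction (-0.11, adjusted p = 0.241) and with only the groups compared (0.0887).

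**Figure D4:**
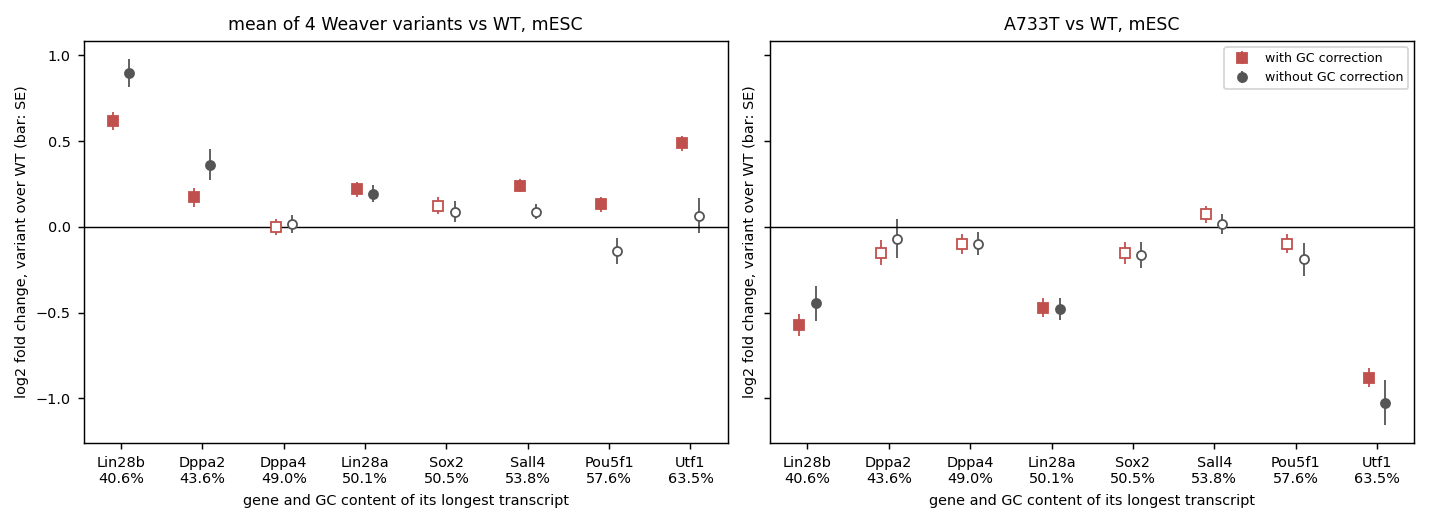
Log2 fold change over WT in mESC (y axis) of the mean of the 4 Weaver variants (left) and of A733T (right) for each gene, ordered by GC content (x axis, percent of the longest transcript), with the GC correction as red squares and without it as grey circles, where bars are standard errors and filled points have an adjusted p under 0.05. On the left, Utf1 lies at 0.49 with the correction and 0.06 without it, and Lin28b at 0.62 with it and 0.90 without it. On the right, Utf1, Lin28a and Lin28b lie below 0 both ways.

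Dppa2 was higher in the Weaver variants than in WT in mESC. Dppa2 was at 115, 108 and 160.0 CPM in A677T, 127, 136 and 133 in R679C, 106, 124 and 126 in K634E and 119, 139 and 156 in K563E in mESC, against 106, 103 and 99.7 in WT. Every library of the 4 variants lies above the WT libraries, and the gap is smallest in K634E. The mean exceeded WT by 0.36 (SE 0.0914, adjusted p = 0.00259), or 0.17 (adjusted p = 0.0193) with the GC correction. A677T (0.35, adjusted p = 0.0149), R679C (0.39, adjusted p = 0.0132) and K563E (0.46, adjusted p = 0.00271) passed singly, and K634E stood at 0.24 (adjusted p = 0.11). K634E passed with no filter (0.23, adjusted p = 0.034) and with only the groups compared (0.24, adjusted p = 0.00714) and was 0.04 (adjusted p = 0.755) with the GC correction. The A677T call was lost without A677T mESC replicate 3 (0.313) or WT mESC replicate 3 (0.0743), the first of which stands apart, with the GC correction (0.10, adjusted p = 0.315) and with only the groups compared (0.0842), and the R679C call without R679C mESC replicate 2 (0.0551), R679C mESC replicate 3 (0.0532) or WT mESC replicate 3 (0.0812). In ATRA the mean of the 4 variants stood at 0.14 (adjusted p = 0.311), and K563E (0.27, adjusted p = 0.0916) passed without WT ATRA replicate 3 (0.0232) and with no filter (0.26, adjusted p = 0.00764). A733T stood at -0.07 (adjusted p = 0.713) in mESC and -0.08 (adjusted p = 0.708) in ATRA. Dppa4 ran from 99.7 to 128 CPM over all ATRA libraries and from 95.4 to 131 CPM over all mESC libraries. Its mean difference in the Weaver variants was 0.02 (adjusted p = 0.815) in mESC and -0.05 (adjusted p = 0.458) in ATRA, and that of A733T was -0.10 (adjusted p = 0.309) and 0.00 (adjusted p = 0.985). K634E was lower in ATRA at -0.18 (adjusted p = 0.0253), a call lost without K634E ATRA replicate 3 (0.121), WT ATRA replicate 1 (0.0561) or WT ATRA replicate 2 (0.118), with no filter (0.142) and with only the groups compared (0.178).

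Sall4 was higher than in WT in K563E in mESC and in A677T in ATRA. In mESC it averaged 291 ± 16.9 CPM in A677T, 292 ± 7.65 in R679C, 274 ± 12.3 in K634E, 313 ± 18.1 in K563E and 280.5 ± 7.15 in A733T, against 282 ± 6.75 in WT (SD, n = 3 each). The mean of the 4 Weaver variants stood at 0.09 (adjusted p = 0.117) and A733T at 0.02 (adjusted p = 0.865). K563E was higher by 0.19 (adjusted p = 0.0117), a call lost without K563E mESC replicate 1 (0.0949) and with no filter (0.0835). With the GC correction the mean of the 4 variants passed at 0.24 (adjusted p = 6.12e-06), as did A677T (0.27), R679C (0.20) and K634E (0.15, against -0.01 uncorrected). In ATRA, A677T was higher at 224, 221 and 216 CPM, against 192, 187 and 195 in WT, a difference of 0.20 (adjusted p = 0.00619) that was lost with no filter (0.0612), and the mean of the 4 variants stood at 0.06 (adjusted p = 0.337). With the GC correction the mean passed at 0.13 (adjusted p = 0.0234) and K563E at 0.21 (adjusted p = 0.00365).

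By count, 3 of the 8 genes were higher in the Weaver variants than in WT in mESC (Dppa2, Lin28a and Lin28b), where 44.4% of all genes tested passed and 21.4% were higher. In ATRA 3 were higher (Sox2, Lin28a and Lin28b), where 20.5% passed and 8.43% were higher. Both counts were 3 without the 2 libraries that stand apart, and with the GC correction 6 were higher in mESC and 4 in ATRA. No member was lower in either state in these fits, at an unadjusted p under 0.05 or by DESeq2 (0 each), while Pou5f1 passed as lower in mESC with no filter or without 1 library, as given above. In A733T 3 were lower in mESC (Utf1, Lin28a and Lin28b), where 19.3% of all genes passed and 8.64% were lower, and 2 in ATRA (Sox2 and Utf1), where 17.7% passed and 7.33% were lower. With only the groups compared 5 were lower in mESC and 4 in ATRA, and with the GC correction 3 and 5. Singly, 11 of 32 passed in mESC and 14 of 32 in ATRA, or 18 and 15 with the GC correction. In mESC, 2 of 8 genes passed in A677T (44.6% of all genes), 3 in R679C (23.7%), 2 in K634E (29.3%) and 4 in K563E (34.5%). In ATRA the counts were 3 in A677T (19.4%), 3 in R679C (10.3%), 5 in K634E (15%) and 3 in K563E (20.5%). In mESC the members' count in the Weaver variants, 3 of 8, lies near the share of all genes. All of these comparisons share the WT libraries.

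The reference lines also differed in a few members. Lin28b was higher in het than in parental in both states. It was at 77.2, 69.1 and 71.8 CPM in het and 52.9, 54.9 and 52.3 in parental in ATRA, a difference of 0.44 (SE 0.0994, adjusted p = 0.00536), and at 36.3, 35.6 and 35.2 CPM in het and 23.2, 25.6 and 23.8 in parental in mESC, a difference of 0.56 (SE 0.101, adjusted p = 0.00105). The libraries do not overlap in either state. Sox2 was also higher in het in ATRA, at 142, 132 and 120.3 CPM against 109.8, 113 and 91.4 in parental, a difference of 0.32 (SE 0.0789, adjusted p = 0.0103) that was lost without het ATRA replicate 1 (0.0948) or parental ATRA replicate 3 (0.111). In ATRA 2 of 8 members passed, where 6.25% of all genes did, and in mESC 1 of 8, where 3.44% did. Utf1 also passed as higher in het with the GC correction, at 0.26 (adjusted p = 0.0022) in mESC and 0.18 (adjusted p = 0.0497) in ATRA, and Dppa2 passed as lower in het in ATRA with only the groups compared (-0.23, adjusted p = 0.0118) and with the GC correction (-0.25, adjusted p = 0.0115).

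Addition of wild-type EZH2 to the heterozygote went with higher Lin28a, which was at 575, 526 and 564 CPM in WT and 492, 453 and 437 in het in ATRA, a difference of 0.27 (SE 0.0585, adjusted p = 0.00161). In mESC it was at 402, 352 and 384 CPM in WT and 332, 295 and 317 in het, a difference of 0.27 (SE 0.0642, adjusted p = 0.00606) that was lost without WT mESC replicate 1 (0.0569) or het mESC replicate 2 (0.0596). Utf1 was at 221, 210.2 and 266 CPM in WT and 159.7, 167 and 152 in het in mESC, a difference of 0.54 (SE 0.129, adjusted p = 0.00734). In ATRA, Sall4 was higher in WT by 0.21 (adjusted p = 0.00494), lost without het ATRA replicate 3 (0.0517) and with no filter (0.0765), and Dppa2 by 0.34 (adjusted p = 0.0363), lost without WT ATRA replicate 1 (0.0821), WT ATRA replicate 3 (0.225), het ATRA replicate 2 (0.0955) or het ATRA replicate 3 (0.147). Sox2 stood at -0.21 (adjusted p = 0.0689) in ATRA and passed as lower in WT without het ATRA replicate 3 (0.04) and with only the groups compared (-0.20, adjusted p = 0.0254). In ATRA 3 of 8 members passed, where 16.4% of all genes did, and in mESC 2 of 8, where 12.1% did. Both with the GC correction and with only the groups compared 6 of 8 passed in mESC. The 4 added were Pou5f1 (0.16), Sall4 (0.16), Dppa2 (0.22) and Dppa4 (0.19, values with the correction), and by DESeq2 Sall4 and Dppa4 passed. Lin28b did not pass between WT and het, at -0.07 (adjusted p = 0.725) in mESC and 0.08 (adjusted p = 0.65) in ATRA. Utf1 in A733T in mESC (112 CPM) lay below parental (135 CPM), het (159.6 CPM) and WT (232 CPM) on average, and its libraries overlapped those of parental. The differences of A733T from het and from parental were not tested.

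The response to ATRA itself was tested for a difference between lines. Sox2 fell less in the Weaver variants than in WT: the change was -1.04 in A677T, -1.08 in R679C, -1.13 in K634E and -1.06 in K563E, against -1.50 in WT, and the difference of the responses was 0.42 (SE 0.0902, adjusted p = 0.00164). Lin28a rose more in A733T (0.92) than in WT (0.55), a difference of 0.38 (SE 0.0858, adjusted p = 0.00555) that was lost without WT mESC replicate 1 (0.0615). These were the members that passed, 1 of 8 in each contrast, where 7.07% and 3.17% of all genes did. With the GC correction Utf1 also passed for the Weaver variants minus WT, at -0.40 (adjusted p = 1.49e-05) against -0.10 uncorrected, and Lin28b for A733T minus WT, at 0.37 (adjusted p = 0.00109) against 0.25. With no filter Utf1 passed for A733T minus WT (0.37, adjusted p = 0.0306). Lin28b stood at -0.31 (adjusted p = 0.0744) for the Weaver variants minus WT and passed as a smaller rise without A677T mESC replicate 2 (0.0434), K634E ATRA replicate 3 (0.0225), K634E mESC replicate 1 (0.0339), K634E mESC replicate 3 (0.0335), R679C mESC replicate 3 (0.046) or WT ATRA replicate 2 (0.028). It also passed without the 2 libraries that stand apart together (-0.35, adjusted p = 0.00627) and with no filter (-0.34, adjusted p = 0.0158). It was -0.15 (adjusted p = 0.118) with the GC correction and did not pass. For het minus parental and for WT minus het no member passed in this fit (0 of 8 each, where 0.73% and 2.25% of all genes did). At an unadjusted p under 0.05 there were 1 and 2, all lower, and by DESeq2 0 and 0. In other fits Utf1 passed for WT minus het with no filter (-0.52, adjusted p = 0.000318), with only the groups compared (-0.51, adjusted p = 0.0108) and with the GC correction (-0.33, adjusted p = 0.0131), and Pou5f1 with no filter (-0.36, adjusted p = 0.0301), with only the groups compared (-0.35, adjusted p = 0.00426) and with the GC correction (-0.25, adjusted p = 0.0284). Dppa2 passed for het minus parental with only the groups compared (-0.35, adjusted p = 0.0395).

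Counts over the gene lists are read against the share of all genes that passed, which was 44.4% in mESC and 20.5% in ATRA for the Weaver variants and 19.3% and 17.7% for A733T. Among genes of the let-7 pathway, 8 of 23 were higher and 3 lower in the Weaver variants than in WT in mESC, with a median of 0.08 against -0.00473 over all genes tested, and 7 and 2 in ATRA, with a median of 0.11. The 11 of 23 that passed in mESC are near the share of all genes. In A733T 1 was higher and 9 lower in mESC (median -0.15 against 0.03), and 2 and 8 in ATRA (median -0.06 against 0.02). Tut4, the uridylyltransferase that LIN28A recruits to let-7 precursors, was higher in the Weaver variants at 0.52 (adjusted p = 1.16e-05) in mESC and 0.26 (adjusted p = 0.00663) in ATRA. So was Mycn, at 0.64 (adjusted p = 2.06e-08) in mESC and 0.32 (adjusted p = 0.00588) in ATRA, and Ccnd2 in mESC (1.08, adjusted p = 2.76e-08). Igf2bp2, an RNA-binding protein gene and let-7 target, was lower, at -0.73 (adjusted p = 1.93e-12) in mESC and -0.80 (adjusted p = 8.83e-12) in ATRA, as was Arid3a (-0.59, adjusted p = 3.11e-06, in mESC and -0.58, adjusted p = 3.8e-05, in ATRA). In A733T the targets Igf2bp3 and Myc were lower, Igf2bp3 at -1.26 (adjusted p = 2.46e-13) in mESC and -1.07 (adjusted p = 2.94e-12) in ATRA, and Myc at -0.93 (adjusted p = 1.19e-09) and -0.96 (adjusted p = 2.94e-12).

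Shared targets and partners of POU5F1 and SOX2 were 3 higher and 5 lower of 14 in the Weaver variants in mESC, where 44.4% of all genes passed, and 6 lower in ATRA, where 20.5% did, led by Spp1 (-0.69, adjusted p = 1.1e-06), Esrrb (-0.51, adjusted p = 6.63e-08) and Fbxo15 (-0.47, adjusted p = 3.79e-05). The median in ATRA was -0.14. In A733T these 3 genes were higher in ATRA, at 1.06 (adjusted p = 4.54e-08), 0.59 (adjusted p = 7.82e-07) and 0.37 (adjusted p = 0.00718), and 6 of 14 were higher and 2 lower, with a median of 0.15. In mESC, A733T had 5 higher and 3 lower, with Nr0b1 among the lower ones at -0.57 (adjusted p = 1.26e-05). Of the nuclear receptors that act on Pou5f1, Nr5a2 was higher in the Weaver variants, at 0.58 (adjusted p = 6.51e-09) in mESC and 0.65 (adjusted p = 0.00142) in ATRA. In mESC 5 of these 8 receptors were tested, of which 2 were higher and 2 lower in the Weaver variants and 3 lower in A733T, and in ATRA 3 were higher in the Weaver variants and 2 higher and 1 lower in A733T.

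Paralogues of Sall4 and Sox2 differed between the lines as well. Sall3 was higher in the Weaver variants, at 0.50 (adjusted p = 2.31e-06) in mESC and 0.82 (adjusted p = 1.67e-09) in ATRA, and lower in A733T, at -1.71 (adjusted p = 1.11e-12) and -0.59 (adjusted p = 4.57e-05). Sall1 was lower in A733T at -0.86 (adjusted p = 1.58e-10) in mESC and -1.24 (adjusted p = 3.53e-12) in ATRA. Of the 14 Sall and NuRD genes, 3 were higher and 1 lower in the Weaver variants in mESC and 4 higher in ATRA, and in A733T 5 were lower in mESC and 4 lower and 1 higher in ATRA. Among the Sox and Pou paralogues, Sox15 was lower in the Weaver variants (-0.88, adjusted p = 6.47e-06, in mESC and -0.99, adjusted p = 0.000267, in ATRA) and Sox17 lower in ATRA (-1.13, adjusted p = 3.18e-10). Sox11 was higher in the Weaver variants (0.34, adjusted p = 0.000318, in mESC and 0.32, adjusted p = 0.00132, in ATRA) and lower in A733T (-0.52, adjusted p = 0.000122, in mESC and -0.38, adjusted p = 0.00262, in ATRA), and Sox3 was lower in A733T (-1.69, adjusted p = 2.92e-08, in mESC and -0.34, adjusted p = 0.00349, in ATRA). In all, 4 were higher and 2 lower of 8 tested in the Weaver variants in mESC, 3 and 2 of 11 in ATRA, and in A733T 2 lower in mESC and 2 higher and 3 lower in ATRA. Of the genes that depend on DPPA2 and DPPA4, 8 were tested in ATRA, where 3 were lower in the Weaver variants, led by Zscan4c (-1.003, adjusted p = 0.00589), and 4 higher in A733T, led by Zscan4f (1.06, adjusted p = 0.01). In mESC 3 were tested, and in A733T Mael (0.80, adjusted p = 0.0104) and Syce1 (0.46, adjusted p = 0.00953) were higher.

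The lines were ordered by the mean level of each gene. In ATRA the order for Lin28b was K563E, K634E, A677T, R679C, WT, het, A733T and parental, and neighbours did not overlap between R679C and WT and between A733T and parental. In mESC it was A677T, K634E, K563E, R679C, het, WT, A733T and parental, with no overlap between K563E and R679C, R679C and het, het and WT, and WT and A733T. For Lin28a the ATRA order was K563E, R679C, A677T, K634E, WT, A733T, het and parental. There the pairs K563E and R679C, A677T and K634E, WT and A733T, and A733T and het did not overlap. In mESC, K563E was highest and A733T lowest for Lin28a, and neither overlapped its neighbour. For Pou5f1 no neighbours were separated in either state, with parental highest and K634E lowest in ATRA and WT highest and K634E lowest in mESC. For Sox2 in ATRA the order was A677T, K563E, R679C, K634E, het, WT, parental and A733T, and the gap between het and WT was the 1 without overlap. Over 16 orders, 24 of 112 neighbouring pairs did not overlap and 88 did. The share over all genes tested was not computed, so this count describes the members only. With CPM on raw library totals the top line was the same in 14 of 16 orders and the whole order in 4.

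The genes most like each member were found by Pearson correlation of log2 group means, centred within each state, over 16 groups and 12364 protein-coding genes of at least 1 CPM. For Lin28b they were Sema3e (0.98), Mindy3 (0.98) and Golt1b (0.98), and for Lin28a Nme1 (0.97), Gbx2 (0.97) and Ap4s1 (0.96). Dppa2 was closest to Ppid (0.98), Zc3h8 (0.98) and Utp11 (0.97), Utf1 to Riox1 (0.95), Nfrkb (0.95) and Nop9 (0.95) and Dppa4 to Rpia (0.86), Hdgf (0.84) and Mien1 (0.83). Sox2 was closest to Fam168b (0.96), Nsl1 (0.94) and Brd9 (0.93), Pou5f1 to Daxx (0.93), Xab2 (0.91) and Eci1 (0.90) and Sall4 to Slc18b1 (0.92), Zrsr2 (0.90) and Mc5r (0.89). The groups share a cell background, and their libraries differ in depth and GC trend, so these values are descriptions.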

How the data were processed

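The authors deposited 1 table of raw read counts, not normalised, for 55401 genes. Per the labels' protocols, poly(A) RNA was captured on beads and primed with random hexamers. The submitters' processing notes name mm10, featureCounts 1.6.4, STAR 2.7.3a, cutadapt 3.2 and DESeq2 1.38.3. The authors' annotation release, strand setting and handling of multi-mapped reads were not given in the sources used here. Symbols, positions and GC content came from GENCODE M21 (GRCm38), where 55141 identifiers were found and 260 were not. Of 54 samples, 48 in 16 groups of 3 were matched to columns. The table has 6 other columns whose names fit no label, and they were left out, so Y728 was not analysed here and the mean of variants has 4 lines.

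Tests used edgeR 4.0.16 in R 4.3.3 (filterByExpr, TMM, robust quasi-likelihood test, Benjamini-Hochberg adjustment over all genes tested, threshold 0.05). Each state was fitted on 24 libraries (16 residual degrees of freedom), and the ATRA effects and their differences between lines on all 48. In all, 28 comparisons gave 224 values for the members. Levels are TMM-normalised CPM, and folds are log2. Alternatives were the size factors of DESeq2, its Wald test (1.42.0), no filter, each library left out, the replicate number as a block, a GC correction (lowess per library, span 0.3) and fits on the compared groups. The 48 pairs of libraries in a group differed by a chi-square per degree of freedom of 2.67 to 35.2, so none is a copy. The rule for names was all 8 members, at most 3 genes per direction of 6 gene lists among those past the threshold, and the 3 genes most like each member. A gene that the rule names is not reported here. The members and lists were chosen with earlier results of these data known.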

Additional observations from a re-analysis of the deposited data

Results flagged for a closer look

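Sox2 responded differently to ATRA in the mean of the 4 Weaver variants than in WT, by 0.42 on the log2 scale (adjusted p = 0.00164, test of the difference of responses). Its fall was smaller in each of the 4 lines (-1.04, -1.08, -1.13 and -1.06) than in WT (-1.50). Lin28a responded differently in A733T than in WT, by 0.38 (adjusted p = 0.00555). It rose by 0.92 in A733T and 0.55 in WT.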

How the results depend on the processing

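Of 224 single values, 220 counted as the same with DESeq2 and 222 with its size factors. The count was 216 with the replicate block, 203 with no filter and 202 with only the groups compared. A value past the threshold counted as the same if it kept its direction and still passed. A value that missed it had to miss it again and shift by less than its SE, whatever its sign. The GC correction moved more. Counts of members past the threshold became 6 (GC correction) and 7 (both GC correction and replicate block) for the Weaver variants in mESC (3 before), and 18 and 19 of 32 for single variants in mESC (11 before). With the same 2 settings they were 5 and 5 for A733T in ATRA (2 before), 2 and 2 for het against parental in mESC (1 before), 4 and 4 in ATRA (2 before), 6 and 6 for WT against het in mESC (2 before), and 6 and 7 of 32 for differences of the response (2 before). Only the groups compared gave 5 for A733T in mESC (3 before), 4 for A733T in ATRA, 6 for WT against het in mESC and 5 for differences of the response. The replicate block alone gave 4 for A733T in ATRA and 4 for differences of the response, no filter gave 6 for those differences, and DESeq2 gave 4 for WT against het in mESC. In each the cause was not tested. With the replicate block 8 more single values passed, among them Pou5f1 (-0.19, adjusted p = 0.0128) and Lin28b (-0.21, adjusted p = 0.0333) in A733T in ATRA, and 0 were lost. Pou5f1 in K634E in mESC was -0.26 and became 0.0260 (GC correction) and 0.0263 (both). Leaving out each library in turn gave 56 to 58 of 64 for ATRA, 2 to 4 and 2 to 3 for the Weaver variants in mESC and ATRA, 9 to 12 and 9 to 14 of 32 for single variants, 3 throughout and 2 to 3 for A733T, 1 throughout and 1 to 2 for het, 1 to 2 and 2 to 3 for WT against het, and 1 to 3 for the differences. The counts that moved by over 1.5 times were 9 for single variants in ATRA without WT ATRA replicate 2, 1 for het against parental in ATRA without parental ATRA replicate 3, 1 for het against parental in ATRA without het ATRA replicate 1, 1 for WT against het in mESC without het mESC replicate 2, 1 for WT against het in mESC without WT mESC replicate 1, 1 for the differences without WT mESC replicate 1. The fits without the 2 libraries that stand apart were chosen after seeing the data, and gave 56 of 64 for ATRA, 10 and 11 of 32 for single variants in mESC and ATRA, and 3 of 32 for the differences. Libraries were not paired by replicate number in the main fits. Same-numbered libraries of different lines deviated together at a mean correlation of 0.08 in mESC and 0.21 in ATRA. Differently numbered libraries stood at -0.04 and -0.10. Deviations were taken from each group's own mean, so these values nearly follow from those of same-numbered libraries and are no separate comparison. Correlations of same-numbered libraries were over 0.1 in 37 and 54 of 84 pairs. Whether libraries of the same number shared a batch is not stated in the labels and was not tested. Depth of at least 15361598 counts per library did not limit these genes, while 3 libraries per group limit the tests.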

Other observations

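The centred group means of the members varied together to unequal degrees. Over the 16 groups the Pearson correlation was 0.86 between Dppa2 and Lin28a, 0.86 between Lin28a and Lin28b, 0.85 between Dppa2 and Lin28b and 0.83 between Sall4 and Dppa2. Dppa2 and its chromosomal neighbour Dppa4 correlated at 0.44. Pou5f1 stood at 0.01 with Sox2, -0.04 with Sall4, -0.12 with Dppa2 and -0.25 with Lin28b. The groups share a cell background, and the GC trend differs between their libraries, so these values describe the 16 groups only.

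Markers of other cell types were summed per library. Sums over 5 neuroectoderm markers were 81.6 to 188 CPM in ATRA and 13.2 to 29.5 in mESC, with Neurog2 under 0.1 CPM in both. Those of 5 primitive endoderm markers were 103 to 248 CPM in ATRA and 49.6 to 194 in mESC, where Lama1 made up most of the sum. Mesoderm markers summed to 15.5 to 64.4 CPM in ATRA and 19.3 to 81.3 in mESC. Within that sum Kdr was higher in ATRA (19.7 against 0.352 CPM) and Eomes lower (13.1 against 45.6 CPM). Trophoblast markers summed to 29.5 to 93.3 CPM in ATRA and 51.4 to 84.4 in mESC, with Elf5 under 0.1 CPM in both. The part of these cells in the values of Sox2, which neural cells also express, was not tested.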
